A study of Mus musculus with 12 samples.

Results

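The Ms4a genes form a cluster on mouse chromosome 19, and 6 of them were followed here through 12 lists of open chromatin: Ms4a1, Ms4a2, Ms4a3, Ms4a6c, Ms4a6d and Ms4a7, out of 21887 protein-coding genes. A peak was assigned to a member when it overlapped the gene's mm10 span extended by 50 kb on each side, or by 10 kb for a narrower view. The widened spans of all 6 merged into 2 stretches of 457967 bp in all at 50 kb, and into 4 stretches of 183655 bp at 10 kb. They held 18 regions at 50 kb, 9 of them also at 10 kb, out of 56682 regions found anywhere in the 12 lists, where a region is a set of peaks from any of the libraries joined by overlap. Neighbouring members share peaks: at 50 kb Ms4a2 and Ms4a3 held the same ones, and at 10 kb Ms4a6d and Ms4a2 did, so these pairs are 1 measurement each and not 2.

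The cells were HoxB8 cells, bone marrow progenitors immortalised by the homeobox protein Hoxb8 and kept growing with estrogen and stem cell factor. All 4 groups were sampled 48 h after estrogen was taken away, so no undifferentiated cells serve as a reference. Open chromatin was measured by ATAC-seq, in which a transposase cuts accessible DNA, with 3 libraries per group. The groups were a non-targeting guide with the empty pMICH vector (sgNT/Empty), the Asxl1 guide B2 with the empty vector (sgB2/Empty), the non-targeting guide with pMICH-CSF3R-T618I (sgNT/T618I), and the B2 guide with pMICH-CSF3R-T618I (sgB2/T618I). Asxl1 encodes a chromatin regulator, which the guide was meant to truncate, and CSF3R-T618I is an activating form of the granulocyte colony-stimulating factor receptor that the vector overexpresses. Whether replicate libraries are separate cultures is not stated, so p-values measure the spread between these libraries, which may be technical. Only 1 Asxl1 guide was used, and peak lists do not show whether the gene was cut.

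Ms4a proteins cross the membrane several times and are small and related in sequence. Ms4a1 is CD20 of B cells, Ms4a2 is the beta chain of the high-affinity IgE receptor of mast cells and basophils, and Ms4a3 is a marker of granulocyte-monocyte progenitors and their offspring. Ms4a6c, Ms4a6d and Ms4a7 are best known from monocytes and macrophages. The cluster therefore sets genes of several blood lineages next to each other on 1 stretch of DNA.

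The stretches of DNA just before the members' starts are shown because open chromatin differed between them: the Ms4a3 stretch overlapped a peak in every library, the Ms4a7 stretch in 4, and those of Ms4a2 and Ms4a6c in none. RefSeq's table on GRCm38.p6, the assembly of mm10, held 4 of the 6 members. The sequences run 5′ to 3′ in the direction of the gene, and stop where the gene's annotated span begins. They lie at chr19:11640852-11641101 for Ms4a3, chr19:11336147-11336396 for Ms4a7 and chr19:11623791-11623969 for Ms4a2, all on the minus strand, and at chr19:11469118-11469352 on the plus strand for Ms4a6c. Capitals mark the match to a GATA motif described after them.

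Ms4a3: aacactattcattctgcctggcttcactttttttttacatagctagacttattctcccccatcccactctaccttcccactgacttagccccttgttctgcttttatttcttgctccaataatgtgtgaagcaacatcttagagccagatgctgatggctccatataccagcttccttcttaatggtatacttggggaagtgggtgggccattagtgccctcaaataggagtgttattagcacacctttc

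Ms4a7: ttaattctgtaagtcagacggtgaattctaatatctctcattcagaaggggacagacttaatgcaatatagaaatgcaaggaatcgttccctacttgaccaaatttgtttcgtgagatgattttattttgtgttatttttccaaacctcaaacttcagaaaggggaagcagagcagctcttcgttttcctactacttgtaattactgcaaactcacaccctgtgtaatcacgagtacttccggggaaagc

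Ms4a2: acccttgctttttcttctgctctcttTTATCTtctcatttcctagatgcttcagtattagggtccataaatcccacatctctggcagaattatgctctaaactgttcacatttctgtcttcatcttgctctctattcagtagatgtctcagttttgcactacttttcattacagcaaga

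Ms4a6c: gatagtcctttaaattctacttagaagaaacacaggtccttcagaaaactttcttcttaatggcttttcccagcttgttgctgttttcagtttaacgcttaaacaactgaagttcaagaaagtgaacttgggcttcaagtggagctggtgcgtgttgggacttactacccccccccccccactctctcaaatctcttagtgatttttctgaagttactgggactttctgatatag

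Letters of 7 motifs were looked for on both strands in the 250 bases before each start. The GATA letters AGATAA, of the family of Gata1 and Gata2 in mast cells and basophils, occurred 3 times before the Ms4a2 start, at 224, 37 and 11 bases from it. Of the 27025 promoters in the table, 10.3% held those letters at least once. The 2 matches nearest the start lie in 71 bases that another gene model counts as Ms4a2, which are not printed. The pattern TGANTCA, searched for as AP-1 with any base allowed in the middle, is held by 6.87% of promoters. It matched the letters TGATTCA 81 bases before a second, inner start of Ms4a7. The windows of Ms4a3 and Ms4a6c and the outer window of Ms4a7 held none of the 7, the others being PU.1/ETS GAGGAAG (in 10.4% of promoters), C/EBP TTGCNNAA (9.55%), RUNX TGTGGT (14.2%), STAT TTCNNNGAA (7.18%) and NF-kB GGGNNTTCC (4.88%). A match of letters is a description of the window and shows no binding.

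The lists held 18484 to 32975 peaks and covered 9.23 to 17.9 Mb per library, and their number of reads is unknown. A longer list covers more bases everywhere, so the bases covered by peaks were scaled to the same total in each library, by factors of 0.781 to 1.52. Within the cluster a library had 4 to 9 peaks, 87 in all. Of the 18 regions, 3 were present in all 12 libraries, 3 in 6 to 11, 9 in 2 to 5 and 3 in a single library. The 3 regions in every library are 16.7% of the cluster's regions, beside 23.6% of regions in all the lists. Every library had a peak at Ms4a3, while Ms4a1, Ms4a2 and Ms4a6d had none within 1 kb of the gene in any of the 12. Ms4a7 had such a peak in 4 libraries and Ms4a6c in 3.

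**Figure D1:**
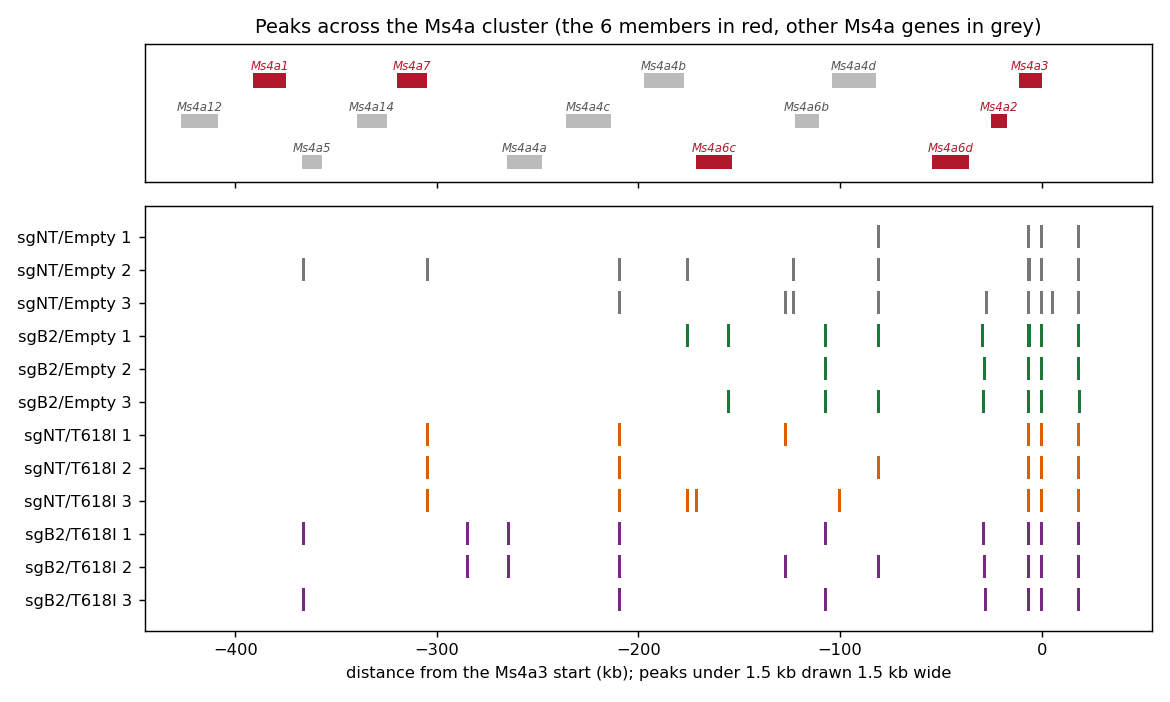
Peaks of the 12 libraries along the Ms4a cluster, by distance from the Ms4a3 start in kb, with 1 row per library coloured by group and gene spans above (members in red). The 3 regions found in all 12 libraries lie at the right, at and beyond Ms4a3, and the region between Ms4a6d and Ms4a2 is filled in the 6 sgB2 libraries and in 1 sgNT library.

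Of the cluster's 18 regions, the one at the start of Ms4a3 stood highest in the lists by its median place. The region at chr19:11640430-11641122 reached from 421 bases inside the gene to 271 bases before it and was called in 12 of 12 libraries. Ordered by p within each list, with the strongest peak first, it stood 3.67 to 21.0% of the way down. The authors' fold over background there was 5.65 to 9.04, and all 12 peaks shared a core of bases. The peak was 410, 689 and 688 bp wide in sgNT/Empty, 349, 592 and 666 bp in sgB2/Empty, 683, 592 and 446 bp in sgNT/T618I, and 255, 480 and 373 bp in sgB2/T618I. As deposited, these widths overlap between all 4 groups.

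Scaled to equal totals, the Ms4a3 start peak was 622, 669 and 572 bp wide in sgNT/Empty and 517, 681 and 708 bp in sgB2/Empty. It was 568, 525 and 386 bp in sgNT/T618I and 266, 375 and 415 bp in sgB2/T618I. The 3 sgB2/T618I libraries lay below all 6 libraries with the empty vector, and sgNT/T618I overlapped them. The mean was 423 bp with T618I and 628 bp with Empty, a difference of -205.7 bp (exact permutation test within guides, two-sided, p = 0.005, the smallest it can give). The p adjusted over the 37113 regions found in at least 2 libraries was 0.137. That is the smallest adjusted p of any region for T618I, so the adjusted test could call none of them. The smallest unadjusted p, with a narrower peak, was reached by 1.65% of those regions. Without scaling the difference was -94.2 bp (exact permutation p = 0.265). Leaving out each library in turn gave differences of -235.3 to -178.9 bp. For the guide the difference was -63.3 bp (exact permutation p = 0.255).

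**Figure D2:**
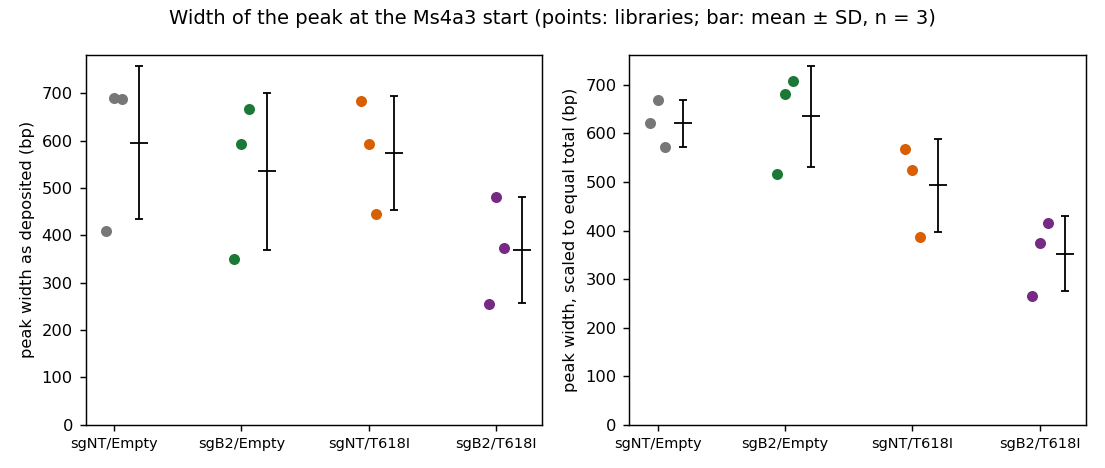
Width in bp of the peak at the Ms4a3 start in each library (points) with the mean ± SD of 3 libraries (bars), as deposited on the left and scaled to equal total coverage on the right. The groups overlap as deposited, and after scaling the sgB2/T618I libraries, at 266 to 415 bp, lie below the 6 Empty libraries.

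A second Ms4a3 region was also present throughout. It lay 6.14 to 6.43 kb into the gene, at chr19:11634422-11634715, was 180 to 294 bp wide and ranked lower, 33.7 to 92.5% down the lists. The other region in all libraries, chr19:11658848-11659659, overlapped the neighbouring gene Oosp2, an oocyte-secreted protein, at 292 to 810 bp. Neither passed the adjusted width test for guide or vector, which no region could pass (adjusted p from 0.644 to 0.788 by the exact permutation test).

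The widest region of the cluster lay between Ms4a6d and Ms4a2, at chr19:11611594-11613442, 6789 bp from Ms4a6d and 2074 bp from the downstream end of Ms4a2. It was called in 6 of 6 sgB2 libraries and in 1 of 6 sgNT libraries. The peaks were 186, 1694 and 920 bp wide in sgB2/Empty and 850, 1804 and 891 bp in sgB2/T618I. In sgNT/Empty the widths were 0, 0 and 200 bp, and no sgNT/T618I library had a peak. The highest sgNT library thus overlapped only the narrowest sgB2 one, sgB2/Empty 1, in deposited width.

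The peaks joined in that region do not all cover the same bases. At most 5 of the 6 sgB2 libraries overlapped at any one base, and the peaks of sgB2/Empty 1 and sgB2/T618I 3 had no base in common. The sgNT/Empty 3 peak lay at the end nearest Ms4a2. All 7 peaks were weak, 74.0 to 94.6% of the way down their lists, with the authors' fold at 3.08 to 3.78 and −log10 q at 1.54 to 3.33. Scaled to equal totals, the mean width was 1082 bp in sgB2 and 27.7 bp in sgNT, a difference of 1054 bp (exact permutation test within vectors, two-sided, p = 0.005, the smallest it can give). Adjusted over all regions the p was 0.37, the smallest of any region for sgB2, so the adjusted test could call none. At the smallest unadjusted p, 0.633% of regions were wider with sgB2. None of the 7 peaks had a −log10 q of at least 5. When each list was cut to the length of the shortest, the difference was 38.3 bp (exact permutation p = 1.0).

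**Figure D3:**
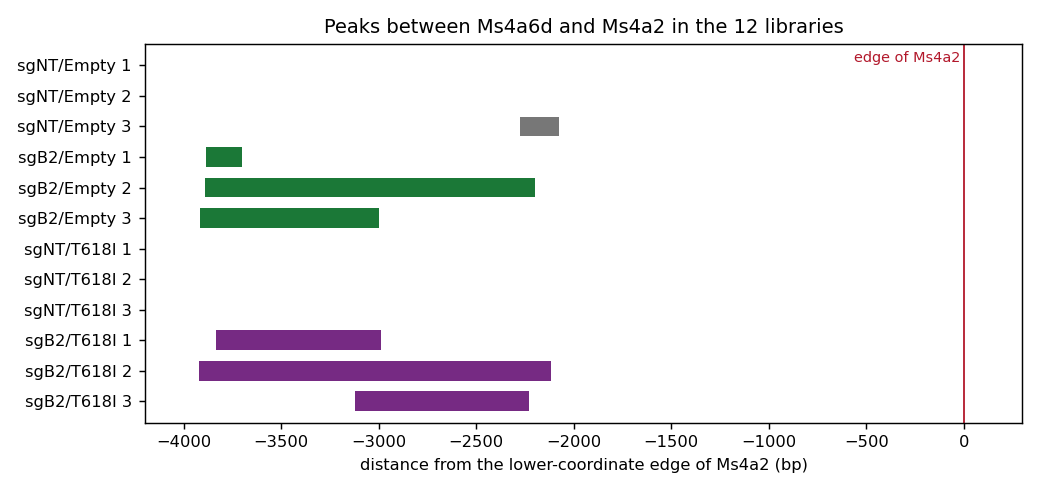
Extent of each library's peak between Ms4a6d and Ms4a2, by distance in bp from the edge of Ms4a2 that faces Ms4a6d, with 1 row per library coloured by group. All 6 sgB2 libraries and sgNT/Empty 3 have a peak, and those of sgB2/Empty 1 and sgB2/T618I 3 do not meet.

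The other regions were small and uneven between libraries. At the start of Ms4a7, chr19:11336030-11336235, a peak of 197 bp in sgNT/Empty 2 and peaks of 197, 206 and 174 bp in sgNT/T618I stood against none in the 6 sgB2 libraries (difference -114.7 bp scaled, exact permutation p = 0.05, adjusted p = 0.637). Between Ms4a6b and Ms4a4d, at chr19:11533459-11533727, 5 of 6 sgB2 libraries and 0 of 6 sgNT libraries had a peak, at 190, 220 and 222 bp in sgB2/Empty and 237, 0 and 203 bp in sgB2/T618I (exact permutation p = 0.02, adjusted p = 0.498). Both of these separate the guides by presence in most libraries, and neither passed the adjusted width test, which could call no region.

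For the vector, the region between Ms4a4c and Ms4a4b at chr19:11431218-11431849 was called in 6 of 6 T618I libraries and 2 of 6 Empty libraries, both of them sgNT/Empty (exact permutation p = 0.065, adjusted p = 0.339). Beyond Ms4a4d, the region at chr19:11559628-11559959 was called in 5 of 6 Empty and 2 of 6 T618I libraries (exact permutation p = 0.085, adjusted p = 0.372). Within 10 kb of Ms4a6c, a peak of 259 bp just inside its start, at chr19:11469380-11469638, was called in sgNT/T618I 3 alone. A peak deeper in Ms4a6c, at chr19:11485355-11485556, was called in sgB2/Empty 1 and 3, and another at chr19:11464918-11465297, before the gene, in 3 libraries, 1 each of sgNT/Empty, sgB2/Empty and sgNT/T618I. Near Ms4a1 the only region was chr19:11274450-11274743, in the neighbouring Ms4a5, called in sgNT/Empty 2 and in sgB2/T618I 1 and 3. The last region within 10 kb of a member, at chr19:11646290-11646586 before Ms4a3, was called in sgNT/Empty 3 alone.

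Counted by a strict rule, a peak in all 3 libraries of one group and none of the other 3 in both backgrounds, 0 of the 15 regions found in at least 2 libraries were gained or lost with sgB2, beside 0.0754% gained and 0.181% lost of all regions. With T618I the count was also 0, beside 0.684% gained and 0.0862% lost. A looser rule set after seeing the data, at least 5 of 6 libraries against at most 1 of 6, gave 2 regions gained with sgB2, those beside Ms4a2 and Ms4a4d, where 0.488% of all regions were gained and 1.23% lost. It gave 0 for T618I, beside 3.09% gained and 0.598% lost. By width, 0 of 15 passed the adjusted test for either factor, beside 0% of all regions. The adjusted p of that exact permutation test did not go below 0.137 for T618I or 0.37 for sgB2. It could therefore call no region, and these counts say nothing about widths. At an unadjusted exact permutation p under 0.05, 2 of 15 passed for sgB2 (6.36% of all regions) and 1 of 15 for T618I (14.5%).

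Around whole genes, the bases covered by peaks rose with sgB2 at 3 members. The test was limma on the log2 of the scaled covered bases plus 500 bp, fitted to 15286 genes (those averaging 500 bp or more), with p-values adjusted by Benjamini-Hochberg over all of them. Of the members, 4 could be tested at 50 kb, and Ms4a1 (mean 59.3 bp) and Ms4a7 (mean 192 bp) could not. Ms4a6d, Ms4a2 and Ms4a3 were higher with sgB2 and Ms4a6c did not pass, beside 1.52% of genes higher, 1.3% lower and 2.83% called in either direction. The 3 rest on 1 set of shared peaks.

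Ms4a6d had 1185, 1099 and 1382 bp within 50 kb in sgNT/Empty and 1386, 2880 and 2167 bp in sgB2/Empty. With T618I it had 750, 991 and 887 bp under sgNT and 1370, 2228 and 1655 bp under sgB2. The guides did not overlap within the T618I libraries, and within the Empty libraries they came within a few bases of each other. The log2 change was 0.64 ± 0.14 (SE; limma adjusted p = 0.0233), with all 3 sgB2 libraries above all 3 sgNT libraries under each vector.

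Ms4a2, the IgE receptor chain, and Ms4a3 had the same values, 1520, 1372 and 1621 bp in sgNT/Empty and 1512, 3324 and 2426 bp in sgB2/Empty. With T618I they were 1232, 1171 and 1286 bp under sgNT and 1746, 2435 and 1981 bp under sgB2. Under the empty vector sgB2/Empty 1 fell among the sgNT libraries, and under T618I the guides did not overlap. The log2 change was 0.53 ± 0.13 (SE; limma adjusted p = 0.0445).

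Ms4a6c, of monocytes and macrophages, had 0, 1012 and 598 bp in sgNT/Empty, 1036, 253 and 451 bp in sgB2/Empty, 426, 450 and 562 bp in sgNT/T618I and 459, 448 and 562 bp in sgB2/T618I. Its change with sgB2 was 0.08 ± 0.23 (SE; limma adjusted p = 0.932), with wide overlap of the groups. Ms4a7 had 428 bp in sgNT/Empty 2, 151 to 183 bp in the sgNT/T618I libraries and 255 to 785 bp in the sgB2/T618I libraries, and 0 in the other 5. The sgB2/T618I bases lay more than 10 kb from Ms4a7, as no sgB2 library had a peak nearer. Ms4a1, the B cell gene, had 219 to 255 bp in 3 libraries and 0 in the other 9. In order of mean level over the 12 libraries, Ms4a2 and Ms4a3 (1802 bp) and Ms4a6d (1498 bp) overlap in range, Ms4a6c (522 bp) reaches into the range of Ms4a6d, and Ms4a7 and Ms4a1 overlap with Ms4a6c.

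**Figure D4:**
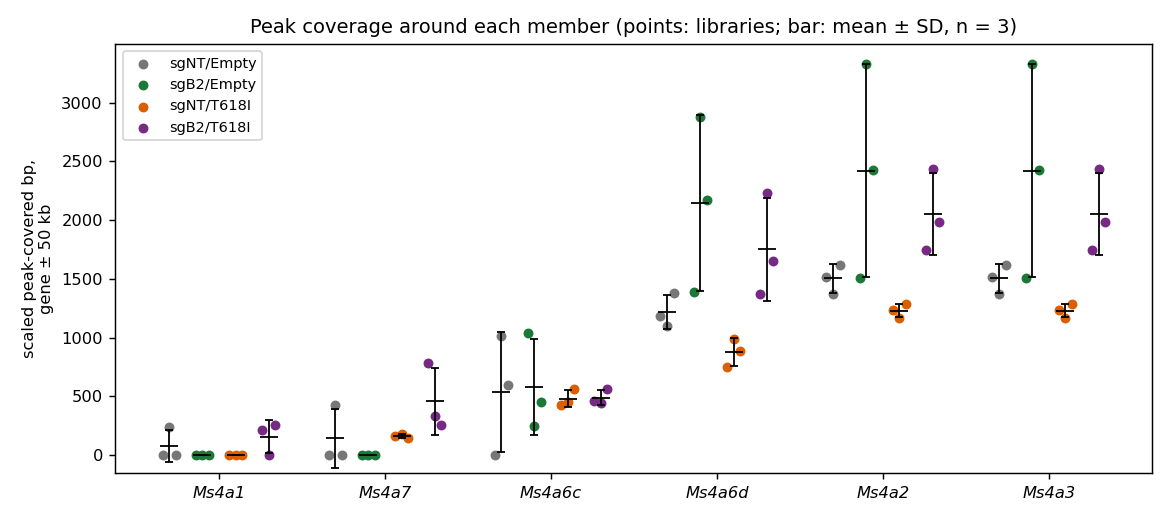
Peak-covered bp within 50 kb of each member, scaled to equal totals, for the 12 libraries (points) by group, with the mean ± SD of 3 libraries (bars). Ms4a6d, Ms4a2 and Ms4a3 are high and share peaks, and the sgB2 groups reach higher there than the sgNT groups.

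The narrower window separated Ms4a2 from Ms4a3. Within 10 kb, Ms4a6d and Ms4a2 held no peak but those between the 2 genes. Their log2 change with sgB2 was 1.51 ± 0.21 (SE; limma adjusted p = 0.00323), beside 0.437% of 11890 genes higher. They averaged 554.7 bp over all libraries, 1082 bp in sgB2 and 27.7 bp in sgNT, where 1 of 6 libraries had a peak. They thus passed the 500 bp filter only through the sgB2 libraries, where they are high. The size of the change also depends on the pseudocount of 500 bp. Ms4a3 had 804 to 940 bp in sgB2/Empty, 844 to 1027 bp in sgNT/Empty, 585 to 758 bp in sgNT/T618I and 482 to 663 bp in sgB2/T618I. Its change with sgB2 was -0.09 ± 0.09 (SE; limma adjusted p = 0.793). The sgB2 value at Ms4a3 in the wide window is thus positive and in the narrow one negative.

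These sgB2 values depended on the weak region between Ms4a6d and Ms4a2. With that region left out, a choice made after seeing the data, Ms4a6d changed by -0.17 and Ms4a2 and Ms4a3 by -0.16 (limma adjusted p = 0.527 and 0.469). No member passed without scaling, with peaks of −log10 q of at least 5, or with lists of equal length, and the last of these and the stricter peaks gave values below 0. Leaving out 1 library kept between 0 and 3 calls, with 0 without sgB2/Empty 2, sgNT/T618I 1 or sgB2/T618I 2, 3 without sgB2/Empty 1, and 1, Ms4a6d, without any of the other 8.

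Within each vector the change at 50 kb did not pass. Ms4a6d changed by 0.58 ± 0.20 with Empty and 0.70 ± 0.20 with T618I (SE; limma adjusted p = 0.225 and 0.162), and Ms4a2 and Ms4a3 by 0.50 ± 0.19 and 0.55 ± 0.19 (limma adjusted p = 0.285 and 0.269), where 0.353% and 0.36% of genes passed in either direction. The Empty values rested in part on sgB2/Empty 2: without it Ms4a6d changed by 0.38 and Ms4a2 and Ms4a3 by 0.28, and without sgB2/Empty 1 by 0.81 and 0.74 (limma adjusted p from 0.0792 to 0.688). At 10 kb, Ms4a6d and Ms4a2 changed by 1.66 ± 0.30 with T618I (limma adjusted p = 0.0471, beside 0.219% of genes) and by 1.36 ± 0.30 with Empty (limma adjusted p = 0.0947, beside 0.177%). No sgNT/T618I library had a peak there, and both genes passed the 500 bp filter only through sgB2 libraries. These 10 kb values rest on the weak region between the genes alone. The difference between the 2 vectors, tested as an interaction, was 0.11 ± 0.28 for Ms4a6d and 0.06 ± 0.27 for Ms4a2 and Ms4a3 (limma adjusted p = 0.999), and no member passed, beside 0.00654% of genes.

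No member passed the test for T618I in the main windows. At 50 kb, 0 of 4 passed, beside 6.49% of genes: Ms4a6d changed by -0.27 ± 0.14, Ms4a2 and Ms4a3 by -0.18 ± 0.13, and Ms4a6c by less than 0.01 in size (limma adjusted p = 0.266, 0.427 and 0.995). At 10 kb, Ms4a3 changed by -0.31 ± 0.09 (SE; limma adjusted p = 0.0775), where 3.13% of genes passed. After scaling, every T618I library was below every Empty library. Without scaling they overlapped, at 462 to 902 bp with T618I and 543 to 1235 bp with Empty. Ms4a6d and Ms4a2, with scaling, changed by 0.01 ± 0.21 at 10 kb (limma adjusted p = 0.975). With lists of equal length Ms4a6d fell at 50 kb, by -0.39 (limma adjusted p = 0.0131). Within each guide, 0 of 4 members passed for T618I, beside 1.49% of genes under sgNT and 1.6% under sgB2.

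**Figure D5:**
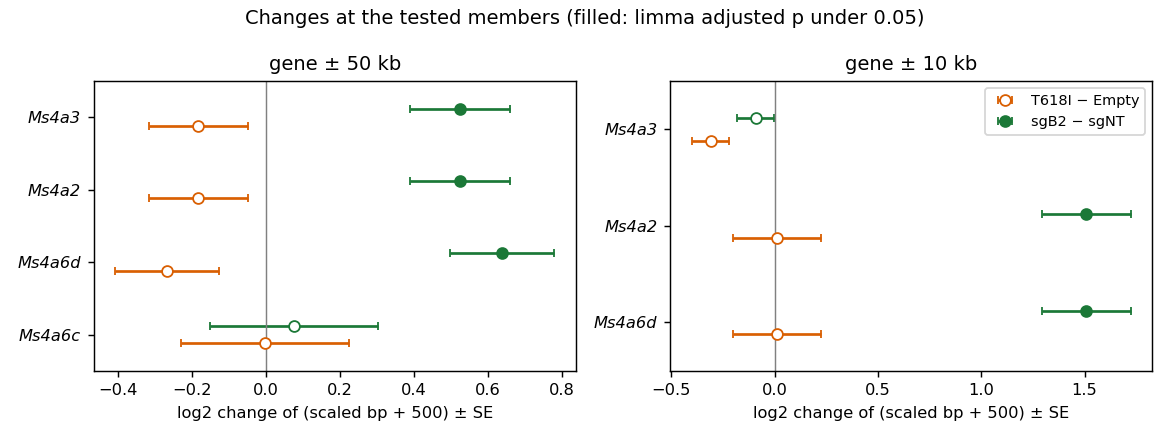
Log2 change of the scaled covered bp plus 500 bp, with its SE, at the members that could be tested, for gene ± 50 kb (left) and ± 10 kb (right). Filled points passed limma's adjusted test: sgB2 at Ms4a6d, Ms4a2 and Ms4a3 on the left and at Ms4a6d and Ms4a2 on the right, while Ms4a3 moves to -0.09 on the right. On the right, Ms4a6d and Ms4a2 entered the test only through their sgB2 libraries.

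Summed over the merged windows, with each base counted once, the cluster had 1790, 3067 and 2408 bp in sgNT/Empty and 2854, 3577 and 3125 bp in sgB2/Empty. With T618I it had 1821, 2036 and 2301 bp under sgNT and 2990, 3434 and 2798 bp under sgB2. sgNT/Empty 2 overlapped the sgB2 range, and the other 5 sgNT libraries lay below it. The means were 3130 ± 316 bp in sgB2 and 2237 ± 477 bp in sgNT (SD, n = 6), a difference of 892.7 bp (exact permutation test within vectors, two-sided, p = 0.01, where 0.005 is the smallest). With T618I the difference was -240.1 bp (exact permutation p = 0.325). Without the region between Ms4a6d and Ms4a2 the sgB2 difference was -161.3 bp (exact permutation p = 0.51). It was also below 0 with peaks of −log10 q of at least 5 (-400.0 bp) and with lists of equal length (-163.4 bp), and was 562.2 bp without scaling (exact permutation p = 0.255). Within 1 vector, 3 libraries against 3 cannot go below p = 0.1, and the differences were 764 bp with Empty (exact permutation p = 0.2) and 1021 bp with T618I (exact permutation p = 0.1).

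The 15 other Ms4a genes on chromosome 19 gave another picture. Of the 6 that could be tested, 3 were higher with T618I and 0 lower, beside 4.06% of genes higher and 2.43% lower, and 0 passed for sgB2. Ms4a8a changed by 0.81 ± 0.14, Ms4a20 by 1.02 ± 0.18 and Ms4a19 by 1.41 ± 0.27 (SE; limma adjusted p = 0.00195, 0.00269 and 0.00591). Their windows overlap, so they share peaks. Within 10 kb Ms4a8a changed by 0.20 ± 0.10 only (SE; limma adjusted p = 0.28). With peaks of −log10 q of at least 5, Ms4a8a and Ms4a20 did not pass (limma adjusted p = 0.295 and 0.385), nor did Ms4a20 and Ms4a19 with lists of equal length (limma adjusted p = 0.0633 and 0.0598). The median log2 change of the 6 was 0.54, beside -0.06 over all genes tested.

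The wide region inside Ms4a20, chr19:11118038-11119748, named after its values were seen, was 0, 183 and 1073 bp wide in sgNT/Empty and 0, 1022 and 219 bp in sgB2/Empty. It was 1010, 1612 and 1590 bp in sgNT/T618I and 1711, 1592 and 1518 bp in sgB2/T618I. All 6 T618I libraries had it, and 2 of the 6 Empty libraries, sgNT/Empty 3 and sgB2/Empty 2, reached the width of the narrowest of them (exact permutation p = 0.01, adjusted p = 0.185). These genes lie on the far side of the cluster from Ms4a3.

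Ms4a2 works in the IgE receptor with Fcer1a, the chain that binds IgE, and Fcer1g, the signalling chain. Fcer1a, on chromosome 1, had no peak within 50 kb in the 6 Empty libraries, 190 to 316 bp in the 3 sgNT/T618I libraries and 190 bp in sgB2/T618I 1, and was too low to test. Fcer1g, which other receptors also use, had 3936 to 5536 bp in every library and passed for neither factor (T618I -0.02 ± 0.08 and sgB2 0.15 ± 0.08, SE; limma adjusted p = 0.897 and 0.416). Of the 3 receptor genes, the only one called was Ms4a2 with sgB2.

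Genes of the lineages that the members mark were read in the same way, and each count of calls is to be set beside 4.06% of all genes higher and 2.43% lower with T618I, and 1.52% higher and 1.3% lower with sgB2. Of 9 tested mast cell and basophil genes, 2 rose with sgB2, the IL-33 receptor Il1rl1 (0.49 ± 0.10) and the transcription factor Gata1 (0.45 ± 0.11; SE; limma adjusted p = 0.0156 and 0.0421), and 0 fell, with a median of -0.04 beside 0.00 over all genes tested. Il1rl1 lies on chromosome 1 and Gata1 on X, and with the totals taken without chromosomes 1, X and Y both still passed while the median of all genes rose to 0.03. Such totals alter only the scale factors, and a shift shared along these chromosomes was not tested. The list's summed coverage within 10 kb was 6.04 to 7.88 kb in sgNT/Empty, 8.21 to 8.55 kb in sgB2/Empty, 7.96 to 8.97 kb in sgNT/T618I and 9.92 to 10.0 kb in sgB2/T618I. It was thus higher with sgB2 under each vector, as the cluster was within 10 kb, while within 50 kb the cluster's guides overlapped under Empty. The median change of the list's genes was below 0, and the list's part in the Ms4a2 result was not tested. The same sum over the mature neutrophil list was lower with sgB2 under each vector, at 8.63 to 10.2 kb against 11.2 to 12.1 kb with Empty and 14.4 to 16.8 kb against 19.1 to 21.0 kb with T618I. Over the list of progenitors and promyelocytes it was lower with sgB2 under T618I (at most 14.4 kb against 16.7 to 17.3 kb) and overlapped under Empty (19.9 to 21.0 kb against 19.6 to 22.9 kb). Over the B cell list the guides overlapped with Empty (6.11 to 7.28 kb against 6.98 to 8.42 kb). They also did with T618I (5.44 to 6.69 kb against 5.62 to 6.87 kb). The monocyte and macrophage sums overlapped too, with Empty (10.5 to 12.1 kb against 11.5 to 12.4 kb). With T618I these were 10.7 to 11.9 kb against 11.6 to 12.9 kb. Without scaling, or with scaling to the number of peaks, 0 of the 9 mast cell and basophil genes passed for sgB2. With T618I, Il1rl1, the histidine decarboxylase gene Hdc and the chymase gene Cma1 rose (0.79, 0.59 and 1.13). Kit, the stem cell factor receptor, fell by 0.59. Cma1 had no peak within 1 kb in any library, so its change lies in more distant peaks of its 50 kb window. Without scaling, Hdc and Kit did not pass.

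Of 10 tested genes of granulocyte-monocyte progenitors and promyelocytes, 0 rose and 3 fell with T618I, Mpo, Elane and Prtn3, which encode granule enzymes. Elane and Prtn3 are neighbours on chromosome 10 whose windows overlap, so their calls are not separate measurements. Of the 3 genes, Mpo alone passed for T618I with scaling to the number of peaks, and 0 passed without scaling. With sgB2, Ms4a3 itself was the only one called. With scaling to the number of peaks it did not pass, and Elane, Mpo and Prtn3 were lower with sgB2 (median -0.27 over the list). All 10 had a peak within 1 kb in at least 1 library, and 5 had one in all 12. As many or more genes of other lists had a peak in all 12, namely 5 of the 12 listed mast cell and basophil genes, 6 of 12 mature neutrophil genes and 7 of 12 monocyte and macrophage genes, so these counts do not set progenitors apart. Of 8 tested B cell genes, 0 rose and 2 fell with T618I, Ebf1 and Vpreb1 (-0.64 and -0.51, with 0 passing without scaling). Vpreb1 had no peak within 1 kb in any library. With scaling to the number of peaks, Ebf1 alone fell with T618I and Cd22 rose. With sgB2, 0 passed, while Fcer2a was lower with scaling to the number of peaks. Cr2, which lies on chromosome 1, did not pass for sgB2 in the main test (limma adjusted p = 0.0661). It was called higher with the totals taken without chromosomes 1, X and Y. Of the 10 listed, 5 had no peak within 1 kb in any library. Of 10 tested monocyte and macrophage genes, Ccr2 alone passed, higher with T618I (0.47), and 0 passed with sgB2. Of 12 mature neutrophil genes, 8 rose with T618I (7 without scaling), among them S100a8 and S100a9, which encode calcium-binding proteins of neutrophils, and Cd177. The windows of S100a8 and S100a9 overlap, so their calls are not separate measurements either. With sgB2, 0 of the 12 passed, and with scaling to the number of peaks S100a8 and S100a9 were lower.

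The genes whose scaled coverage within 50 kb followed that of the merged cluster most closely over the 12 libraries were Cd247 (Pearson r = 0.901), Chrng (0.89), D630023F18Rik (0.883), Slc28a2b (0.875) and Rgs13 (0.874). These are the 5 highest of all genes tested and are given as a description. They share the libraries and their scaling with the cluster. Except Slc28a2b, on chromosome 2, all lie on chromosome 1.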

How the data were processed

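The data were 12 broad peak lists from ATAC-seq, 1 per library, placed in 4 groups of 3 per the labels. Per the submitters' processing notes, the tools were BWA 0.7.17, SAMtools 1.9, bedtools 2.30, MACS2 2.2.7.1 and deepTools 3.5, on mm10. Each deposited list has a whole-number score (10 times −log10 q), a fold over background (a ratio), and −log10 p and −log10 q, all the authors' own. The score was not used, the fold was used to describe peaks, and −log10 p and −log10 q ordered or filtered the peaks of 1 list at a time. Read counts were not used, so depth is unknown.

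Peaks on other contigs (0.415 to 0.735% of a list) were left out. Regions were peaks of any library joined by an overlap of at least 1 bp. Gene spans came from RefSeq's GRCm38.p6 table. Coverage was tested with limma 3.58.1 (trend, 4 groups, 8 residual degrees of freedom, 7 contrasts) in R 4.3.3, with a pseudocount of 500 bp. Single values were tested by exact permutation within the other factor (400 arrangements). Python 3.11.15, numpy 2.4.6, pandas 2.3.3 and matplotlib 3.10.9 were used, and the limma fit was tested on simulated data.

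The members and gene lists were chosen with earlier results of these data known. Named were all members, the called Ms4a genes, the IgE receptor partners, up to 3 genes of each list by p for T618I and the 5 genes most like the cluster. Gata1, Hdc, Fcer2a, Cr2 and Cd22 were named after their values were seen. Regions described were those within 10 kb of a member, and within 50 kb those in at least 6 libraries or past a rule. Alternatives were other windows, pseudocounts, scalings, filters and peak thresholds, and leaving out each library.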

Additional observations from a re-analysis of the deposited data

How the results depend on the processing

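The rise of cluster coverage with sgB2 (892.7 bp) held when each library was left out (734.7 to 1054 bp), and its direction was lost with peaks of −log10 q of at least 5 (-400.0 bp), lists of equal length (-163.4 bp) and the widest region left out (-161.3 bp), and its call without scaling (562.2 bp). The T618I difference was 285.2 bp without scaling, and -398.1 to -78.7 bp with each library left out. The count of members called for sgB2, 3, was 0 without scaling, with −log10 q of at least 5, with equal lists or without the widest region, and 1 with scaling to the number of peaks, with no filter or without trend. Leaving out each library gave 0 to 3. For T618I it was 1 with equal lists, and for sgB2 with T618I 2 at 10 kb, where Ms4a6d and Ms4a2 entered the test only through sgB2 libraries. Regions altered in presence with sgB2 were 0 to 1 with a library left out and 2 by the looser rule.

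With −log10 q of at least 5, equal lists and the widest region left out, in that order, the sgB2 change of Ms4a2 and Ms4a3 was -0.13, -0.15 and -0.16, with Empty -0.0103, -0.0289 and -0.0735, and with T618I -0.24, -0.28 and -0.25. For Ms4a6d it was -0.17, -0.10 and -0.17, with Empty -0.13, -0.0293 and -0.0824, and with T618I -0.20, -0.17 and -0.26. At 10 kb, Ms4a3 gave -0.091 for sgB2, -0.0372 with Empty and -0.14 with T618I, and Ms4a2 and Ms4a6d gave 0.0133 for T618I. Without scaling, the T618I change was 0.0578 for Ms4a2 and Ms4a3. For Ms4a6c, T618I gave 0.20 with a pseudocount of 100 bp, 0.11 without scaling, 0.0516 with scaling to the number of peaks and -0.23 to 0.0532 with each library left out, and sgB2 gave -0.0744 without scaling and -0.15 to 0.19. Ms4a8a lost its T618I call at 10 kb. Where no value shows it, the cause was not tested.

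Same-numbered libraries of different groups do not share a stated source, and the correlation of their deviations was -0.158 to 0.216 over 18 pairs, with 4 over 0.1. Pairs with different numbers ran from -0.298 to 0.252, a range that holds that of the same-numbered pairs. With the replicate number as a block, the count of members called was 3 for sgB2 and 0 for T618I. The cluster difference for sgB2 was 892.7 bp (exact permutation p = 0.0312, the smallest this blocked test can give). Without scaling the median log2 change of all genes was 0.20 for T618I and -0.14 for sgB2, beside -0.06 and 0.00. Of the genes called, 837 were then higher and 16 lower with T618I, beside 621 and 371, and 7 higher and 15 lower with sgB2, beside 233 and 199. With scaling to the number of peaks, 1107 were higher and 127 lower with T618I, and 129 higher and 697 lower with sgB2. Depth is unknown, so an absent peak cannot be told apart from one below the calling threshold.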
